A study of Mus musculus with 57 samples.

Results

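Bone marrow holds 2 very different kinds of cell in close contact: the stromal cells that build and feed the marrow niche, and the myeloid cells that mature within it. The comparison described here set 3 MSC libraries (mesenchymal stromal cells) against 3 myeloid libraries, all from control mice, of 57 bone marrow libraries in the series. The members were chosen by their labels: the control libraries of mouse pools 15, 17 and 19 in batch C, where each pool gave both an MSC and a myeloid library. The 3 pools therefore pair the populations within the same mice. The mice were male C57BL/6, 8 weeks old by the treatment protocol, and received the control agent for 4 weeks before marrow was collected and sorted. Mice given anti-PAPP-A antibody for 4 weeks (pools 16, 18 and 20, also batch C, 3 libraries of each population) were used only to see the same contrast in other animals. The labels give neither the sort markers nor how many mice a pool held, so each pool is 1 sample. The p-values measure how the difference between the MSC and myeloid libraries of a pool varied from pool to pool.

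As background, marrow stromal cells of the Lepr and Cxcl12 type wrap the sinusoids, secrete the chemokine and growth factors that hold and sustain blood stem cells, deposit collagen matrix, and can give rise to bone and fat cells. Most myeloid cells of adult marrow are neutrophils and their precursors. They pack antimicrobial proteins into granules that appear in a set order (primary, then secondary, then gelatinase granules), arm an oxidase that makes superoxide, and leave the marrow when CXCR4 signalling from stromal CXCL12 gives way to CXCR2 signalling.

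Total counts were 15318825 to 18445347 in the MSC libraries and 16324524 to 18180103 in the myeloid libraries. Both pool 17 libraries had more genes with a count than the others of their population (21037 against 17563 and 17977 in MSC, and 21181 against 16431 and 17113 in myeloid). The 10 most abundant genes took 10.1% to 10.7% of the counts in MSC and 18.6% to 20.3% in myeloid cells. Mitochondrial genes took 1.29% to 1.87% and 0.432% to 0.692%. Levels are CPM, each count relative to the library size after scaling by edgeR's TMM factors. Differences are fitted log2 ratios of MSC over myeloid, given where stated with a standard error (SE), and adjusted p-values are from edgeR's quasi-likelihood test with the pool as a block. A gene is called where that p is under 0.05.

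Both marker genes followed the labels. Cxcl12, the chemokine that retains stem cells and neutrophils in marrow, stood at 35660, 40280 and 37960 CPM in MSC pools 15, 17 and 19. In the myeloid libraries of the same pools it stood at 57.39, 7.874 and 32.2 CPM. The log2 difference was 10.55 (SE 0.81, adjusted p = 1.88e-04). S100a9, a calcium-binding protein that is the most abundant cytosolic protein of neutrophils, went the other way. It stood at 47920, 53680 and 58370 CPM in myeloid pools and at 433.7, 259.1 and 363.9 CPM in MSC pools, a log2 difference of -7.27 (SE 0.331, adjusted p = 4.65e-05). For each of these 2 genes all 3 libraries of one population lay above all 3 of the other. Bulk libraries cannot tell fewer cells of a type from less RNA per cell, here and in every result that follows.

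Across the genome, 7042 of 16183 genes tested were called, which is 43.5%: 3735 (23.1%) were higher in MSC and 3307 (20.4%) were higher in myeloid cells. Without pool 17 the count was 3680 (1986 and 1694), and 0 calls changed direction. The median log2 difference over all genes tested was 0.05. Differences were often very large: 2690 genes were called with a log2 difference of at least 2 in favour of MSC and 1782 in favour of myeloid cells, and 876 and 163 with at least 8. The libraries of the 2 populations did not overlap for 5385 genes in favour of MSC (33.3%) and for 4861 in favour of myeloid cells (30%). Protein-coding genes were called more often than the whole, with 3535 higher in MSC and 2912 higher in myeloid cells of 13128 (49.1%). Of 451 lincRNA genes 20% were called, with 25 higher in MSC and 65 in myeloid cells.

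**Figure D1:**
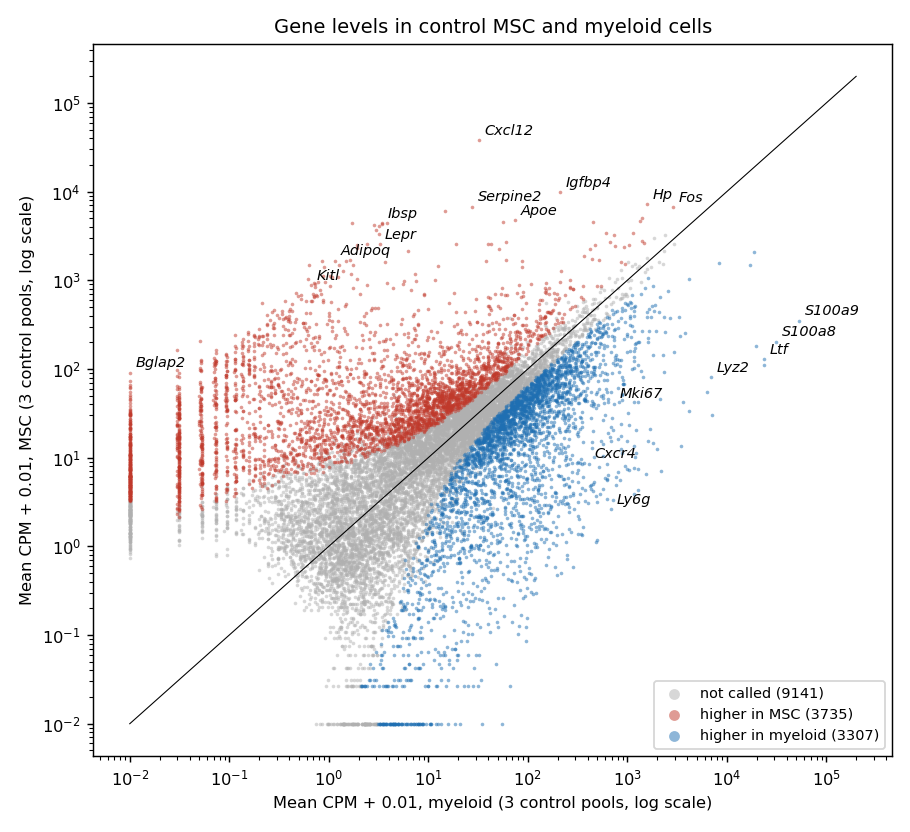
Mean CPM (plus 0.01, log axes) of every gene tested in the 3 control MSC libraries against the 3 control myeloid libraries, coloured by the call, with the line of equal levels. Red genes (3735) are higher in MSC and blue genes (3307) higher in myeloid cells; Cxcl12 and S100a9 lie far out on opposite sides of the line, and the columns of points at the left are genes with 0 or a few counts in the myeloid libraries.

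Among genes called with a log2 difference of at least 3 in favour of MSC, the 5 most abundant all encode secreted proteins. After Cxcl12 came Igfbp4, an insulin-like growth factor (IGF) binding protein, at 10250, 10540 and 8782 CPM in MSC against 230.8, 232.6 and 168.6 CPM in myeloid cells (log2 5.56). Serpine2, an inhibitor of thrombin and plasminogen activators, stood at 6690, 6887 and 6833 CPM against 31.79, 22.92 and 28.05 (log2 7.96). Gpx3, the secreted glutathione peroxidase, stood at 6862, 5410 and 5680 CPM against 19.28, 12.1 and 12.83 (log2 8.69). Apoe, the lipid carrier, stood at 5178, 4950 and 4089 CPM against 50.24, 74.71 and 98.81 (log2 6.04). In all 5 genes the ranges of the 2 populations lay far apart, while the low myeloid level of Cxcl12 varied most between pools. Per kilobase of exon, the mean level of Cxcl12 in MSC was 4643 CPM per kb, above Gpx3 at 3301, Igfbp4 at 2232 and Apoe at 2217.

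Niche signals were largely stromal. Of 28 tested niche ligands, 24 were higher in MSC and 0 in myeloid cells, with a median log2 difference of 7.95 against 0.05 over all genes. Kitl, the stem cell factor that sustains stem cells and mast cells, stood at 680.8, 945.2 and 1036 CPM in MSC and at 0.8299, 0.2561 and 0.8913 CPM in myeloid pools. The macrophage growth factors Csf1 (1021 ± 125 CPM, SD, n = 3) and Il34 (376 CPM), and Gas6 (3378 CPM), the ligand of the receptors that drive uptake of dying cells, were also far higher in MSC, by 6.45, 10.26 and 10.22 on the log2 scale. Cxcl14, a chemokine with few known receptors, stood at 2845, 2676 and 2056 CPM against 3.958, 0.3201 and 1.485. The 4 tested ligands without a call were Hgf, Ccl2, Flt3l and Il15. Ccl2, which recruits monocytes, stood at 282.2, 180.9 and 69.58 CPM in MSC and at 122.8, 85.85 and 62.75 CPM in myeloid cells (log2 0.81, adjusted p = 0.0509), so the 2 ranges overlapped, and it was called without pool 19 (adjusted p = 0.0219) and under all 4 other scalings or thinning, both other filters, DESeq2 and limma voom (adjusted p = 0.0158 to 0.0492).

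Stromal identity genes followed the label, with 28 of 30 tested members higher in MSC and 1 in myeloid cells (median log2 6.72, or 6.58 with the genes at 0 counts set to their bound of 3 counts per library). Lepr, the leptin receptor that names this cell type, stood at 2375, 2602 and 2691 CPM against 6.32, 0.8322 and 2.555. Adipoq, the adipocyte hormone also made by these stromal cells, stood at 1595, 1695 and 1684 CPM against 2.426, 0.128 and 0.8913. Pdgfrb, a mesenchymal receptor kinase, and Ebf3, a transcription factor of niche stroma, reached 1107 and 709.7 CPM and differed by 10.14 and 9.90, the call of Ebf3 being lost without pool 15 (adjusted p = 0.0535). Its relative Ebf1, which is also a B cell factor, had a smaller difference of 3.31, at 1026, 485.4 and 644.5 CPM against 129.6, 38.79 and 65.9. Mcam, an adhesion molecule often used to mark human marrow stroma, was the member higher in myeloid cells (log2 -3.58, adjusted p = 0.0326). Its levels were 14.04, 1.862 and 0.1481 CPM in MSC and 33.26, 25.93 and 13.79 in myeloid pools, so the 2 groups touched, and the call was lost without pool 17 (adjusted p = 0.195), with no pool block (log2 -2.19, adjusted p = 0.165) and with no low-count filter (adjusted p = 0.0685).

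Matrix genes were almost entirely stromal. All 15 fibrillar and related collagens tested were higher in MSC (median log2 9.75), as were 15 of 16 basement membrane genes, 27 of 30 matrix glycoproteins and 19 of 20 matrix-modifying enzymes. Col1a2, a chain of type I collagen, stood at 3473, 4991 and 4792 CPM against 6.767, 1.792 and 2.912 in myeloid cells. The partner chain Col1a1 stood at 1813, 3054 and 2919 CPM against 28.09, 12.42 and 17.05. Pool 15 was the lowest MSC library for both chains and also for Col3a1 (354.3, 471.9 and 506.6 CPM). Sparc, a collagen-binding glycoprotein of bone, and Bgn, the proteoglycan biglycan, stood at 4304 and 4137 CPM in MSC. Serpinh1, the collagen chaperone, stood at 1455, 1628 and 1356 CPM against 2.617, 0.2561 and 0.8913.

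There were 3 matrix glycoproteins that did not follow the group. Vcan, versican, was not called (31.91 against 17.02 CPM, adjusted p = 0.0597), but was called with DESeq2, limma voom and total counts alone (adjusted p = 0.0355, 0.0464 and 0.0327). Thbs1, thrombospondin 1, a platelet and leukocyte adhesive protein, was higher in myeloid cells at 2158, 3325 and 1728 CPM against 360.9, 292.6 and 137.2 in MSC (log2 -3.25, adjusted p = 3.49e-04). Fn1, fibronectin, was not called: 160.4, 134.7 and 158.1 CPM in MSC against 122.9, 228.8 and 316.6 in myeloid cells (log2 -0.47, adjusted p = 0.269). Without pool 15, Fn1 was called higher in myeloid cells (adjusted p = 0.0333) and Vcan higher in MSC (adjusted p = 0.0208). Proteases that act on matrix were split, with 15 of 28 higher in MSC and 11 higher in myeloid cells. The myeloid side held Mmp8 and Mmp9, the neutrophil collagenase and gelatinase (2188 and 1828 CPM against 7.056 and 14.8). The stromal side held Ctsb and Ctsl, lysosomal cathepsins (836 and 781.1 CPM against 264 and 153.8).

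Within the IGF axis, 13 of 19 tested genes were higher in MSC and 3 in myeloid cells, beside 23.1% and 20.4% of all genes tested. Tested binding proteins and ligands lay on the stromal side. The 3 genes on the myeloid side were the receptor kinases Igf1r and Insr and the stanniocalcin Stc1. Stc1 stood at 34.3 CPM in myeloid cells against 4.304 in MSC (log2 -3.10, adjusted p = 0.00152). Igfbp5 stood at 1391, 1272 and 1756 CPM in MSC and at 1.021, 0.3201 and 0.5348 CPM in myeloid cells (log2 11.24). Igfbp7 reached 1710 CPM and Igfbp3 409.6 CPM. The ligand Igf1 stood at 344.7, 213.7 and 194.1 CPM against 1.468, 1.664 and 1.426 (log2 7.31), and Igf2 at 52.06, 56.4 and 49.89 CPM against 0.1915, 0.3201 and 0.0594. Its receptor gene Igf1r was higher in myeloid cells, at 462.9, 470.2 and 337.1 CPM against 101.3, 70.32 and 66.62 (log2 -2.42, adjusted p = 3.37e-04). The insulin receptor gene Insr stood at 63.07, 58.64 and 57.34 CPM in myeloid cells against 28.2, 19.5 and 14.85 in MSC (log2 -1.57, adjusted p = 0.00433), and this call was lost without pool 17 (adjusted p = 0.0505).

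Bone and fat genes sat in the same stromal libraries. Of 23 tested osteoblast genes 18 were higher in MSC. Of 18 adipocyte genes 11 were higher in MSC and 3 in myeloid cells, the latter near the 20.4% of all genes tested. Ibsp, bone sialoprotein, stood at 4583, 4426 and 4223 CPM against 7.342, 0.5121 and 2.496. Spp1, osteopontin, stood at 4571, 5167 and 3885 CPM against 47.05, 82.45 and 41.41. Alpl, the alkaline phosphatase of mineralizing cells, varied more between MSC pools, at 163.3, 256 and 305.7 CPM, against 0.1915, 0.0640 and 0.0594 in myeloid cells. Bglap2, an osteocalcin gene, had 0 counts in all 3 myeloid libraries and 69.42, 131.8 and 72.89 CPM in MSC, which makes it at least 488-fold higher (against 3 counts per library); the neighbouring osteocalcin genes are near-identical, so the split of counts among them is uncertain. Lpl, lipoprotein lipase, stood at 3163, 2422 and 2082 CPM against 41.88, 54.48 and 31.79. The adipocyte genes higher in myeloid cells included Plin2, a lipid droplet coat protein (268.5 against 59.03 CPM), and Acsl1, an acyl-CoA synthetase (236.7 against 19.84 CPM).

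Positional and developmental pathways were also largely stromal. Of 28 tested Hox genes 18 were higher in MSC (11 without pool 17) and 0 in myeloid cells. Hoxa5, Hoxa7, Hoxa9 and Hoxa10 stood at 49.1, 38.85, 34.53 and 39.28 CPM in MSC and at a mean of 0.256 CPM or less in myeloid cells. Beside 23.1% and 20.4% of all genes tested, 30 of 38 Wnt pathway genes were higher in MSC and 1, Fzd6, in myeloid cells. Of 37 genes of the transforming growth factor beta and bone morphogenetic protein (TGF-beta and BMP) pathways, 31 were higher in MSC. The 3 higher in myeloid cells were Tgfb1, Acvrl1 and Inhba. Both pathways held ligands, receptors and secreted inhibitors on the stromal side: Sfrp4, a Wnt-binding inhibitor (1424 CPM), Chrdl1, a BMP antagonist (679.6 CPM), and Ltbp2, a matrix protein of the latent TGF-beta family (851 CPM). Notch pathway genes were mixed, with 7 of 15 higher in MSC and 3 in myeloid cells, the latter near the 20.4% of all genes tested. Without pool 17, 4 were higher in MSC, beside 1986 of 16518 genes tested in that fit. Notch3, a mural cell receptor, stood at 172.5, 204.4 and 205.5 CPM in MSC against 0.2554, 0.064 and 0.2377, while Notch1 was higher in myeloid cells (186 against 44.85 CPM).

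**Figure D2:**
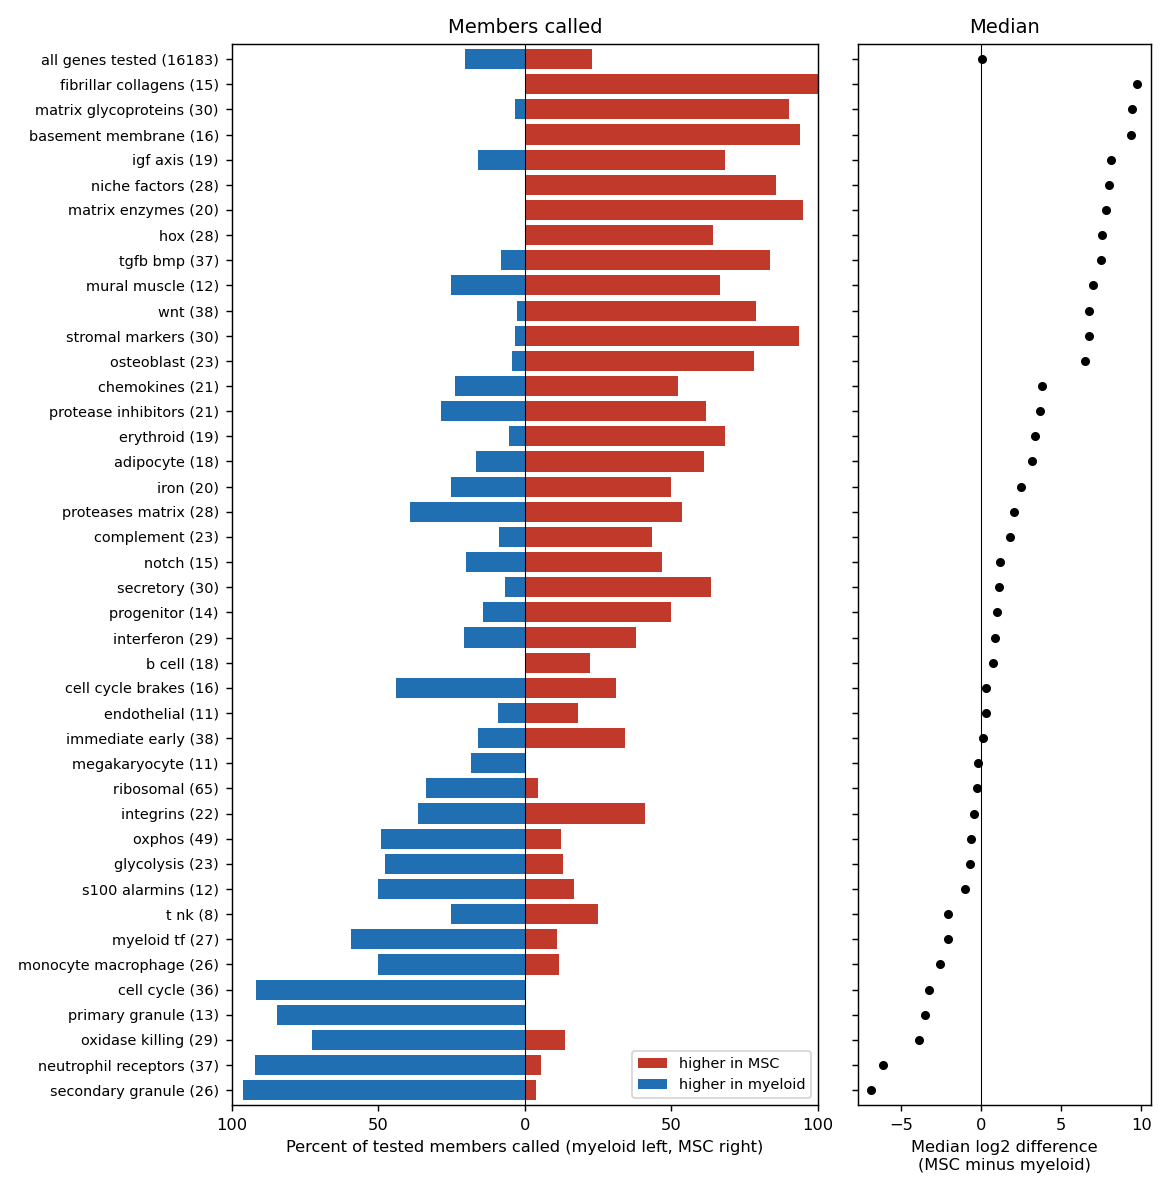
Left, the percent of tested members of each gene list (number in brackets) called higher in MSC (red, right) or in myeloid cells (blue, left), with all genes tested in the top row; right, the median log2 difference of each list. Collagen and matrix lists lie at the stromal end (15 of 15 fibrillar collagens), and secondary granule (25 of 26) and neutrophil receptor genes (34 of 37) at the myeloid end.

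Neutrophil granule genes formed the myeloid counterpart. Of 26 tested secondary granule and late neutrophil genes 25 were higher in myeloid cells (median log2 -6.89, or -6.86 with the bound), and of 13 primary granule genes 11 were. S100a8, the partner of S100a9, stood at 26960, 29650 and 38380 CPM in myeloid pools and at 236.3, 159 and 215.7 CPM in MSC. Camp, the cathelicidin precursor, stood at 24130, 25890 and 20750 CPM against 118, 75.07 and 138.6. Ltf, the iron-binding lactoferrin, stood at 21490, 25370 and 24270 CPM against 165.1, 90.65 and 130.4. Ngp, a neutrophil granule protein of the cystatin family, stood at 15200, 21350 and 23070 CPM against 210.8, 123 and 216.4. The log2 differences of these 4 genes were -7.28, -7.78, -7.56 and -6.78. Per kilobase of exon, S100a9 was the highest in myeloid cells at 102100 CPM per kb, then S100a8 at 45620, Camp at 31120, Ngp at 16260 and Ltf at 6873.

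The 5 leading myeloid genes came from 2 stretches of the genome. In GRCm38, S100a8 (chr3:90668978-90670035, plus strand) and S100a9 (chr3:90692632-90695721, minus strand) are separated by 22596 bases. Camp (chr9:109847379-109849617, minus strand), Ngp (chr9:110419747-110423012, plus strand) and Ltf (chr9:111019271-111042767, plus strand) all lie on chromosome 9, with 570129 bases between Camp and Ngp and 596258 between Ngp and Ltf. Cxcl12 lies at chr6:117168535-117181367 on the plus strand. The counts cover whole genes and do not separate exons, introns or untranslated parts.

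Primary granule genes, made at the promyelocyte stage, differed less as a list, with a median log2 difference of -3.48 against -6.89 for the secondary list. Lyz2, lysozyme, stood at 4875, 5287 and 10880 CPM in myeloid pools, highest in pool 19, against 80.07, 48.46 and 115.3 in MSC. It is in both lists, and its log2 difference of -6.42 was near the secondary median. Mpo, myeloperoxidase, stood at 727.2, 647.6 and 810.6 CPM against 60.04, 206.5 and 275.8 (log2 -2.24, adjusted p = 0.00898), and Prtn3, proteinase 3, at 820, 918.6 and 712.5 CPM against 38.15, 62.09 and 80.84 (log2 -3.82). In MSC pool 15 both Mpo and Prtn3 were lower than in MSC pools 17 and 19. A single gene of the secondary granule list was higher in MSC. Hp, haptoglobin, which binds free haemoglobin, stood at 7837, 7116 and 6812 CPM in MSC against 1244, 1503 and 2028 in myeloid cells (log2 2.22, adjusted p = 9.44e-04).

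Surface receptors and killing machinery followed the granules. Of 37 tested neutrophil receptor genes 34 were higher in myeloid cells and 2 in MSC, with a median log2 difference of -6.13. Ly6g, the surface marker of mouse neutrophils, stood at 713.4, 605.9 and 765 CPM against 4.466, 1.47 and 1.875. Fpr2, a formyl peptide receptor, stood at 433.3, 456.1 and 574.8 CPM against 1.85, 0.882 and 0.5922. Il1r2, the decoy receptor for interleukin 1, had 724.4 CPM against 3.285, a call lost without pool 15 (adjusted p = 0.0580). Il1r1, the signalling receptor for the same ligand, was one of the 2 exceptions, at 244.9, 197.3 and 249.2 CPM in MSC against 9.831, 3.329 and 5.704 (log2 5.31). Tnfrsf1a, a receptor for tumour necrosis factor, was the other (log2 1.38, adjusted p = 0.00701), and its call was lost without pool 17 (adjusted p = 0.0713). Of 29 oxidase and killing genes 21 were higher in myeloid cells, with Cybb and Cyba of the oxidase at 2133 and 1388 CPM against 45.48 and 96.15. The list's 4 genes higher in MSC (1 without pool 17) included Il1rn, the interleukin 1 receptor antagonist (327.9 against 147.9 CPM, adjusted p = 0.0662 without pool 17), and Hvcn1, a proton channel (221.6 against 76.72 CPM).

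Monocyte and macrophage genes were mostly higher in myeloid cells or not called. Of 26 tested, 13 were higher in myeloid cells, 3 were higher in MSC and 10 were not called. Over all genes tested, 20.4% were higher in myeloid cells and 23.1% in MSC. Ly6c2, a monocyte surface protein, stood at 270.6, 377.7 and 713.9 CPM against 7.912, 57.68 and 58.18, and Ccr2, the receptor for Ccl2, at 299.4, 325.1 and 352.6 CPM against 2.552, 1.372 and 2.171. The resident macrophage genes Vsig4, Marco, Siglec1, Spic and Timd4 did not pass the low-count filter. Other macrophage genes did: Adgre1 was higher in myeloid cells (29.32 against 0.2485 CPM), while Mrc1, C1qa, C1qb, C1qc and Cd163 were not called. Genes of this list higher in MSC included Maf, a transcription factor of macrophages (202.5 against 13.01 CPM), and Lgmn, a lysosomal protease (130.4 against 29.82 CPM).

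Among transcription factors of myeloid cells, 16 of 27 were higher in myeloid cells and 3 in MSC, beside 20.4% and 23.1% of all genes tested. Spi1, which encodes PU.1, the master factor of the myeloid lineage, stood at 234.7, 262.9 and 444.9 CPM against 4.466, 5.194 and 16.68. Cebpe, the factor of secondary granule genes, stood at 176.7, 190.1 and 243.4 CPM against 0.4466, 3.577 and 4.984. Both were chosen for mention after their values were seen. So were Chil3, Il15, Vcan, Pecam1, Emcn, Jchain, Cd8a, Adgre1, Mrc1, C1qa, C1qb, C1qc, Cd163 and the filtered genes named elsewhere. The exceptions were Cebpa, Runx1 and Fos. Cebpa, a factor of early granulocytes and of fat cells, stood at 414.7, 362 and 325.7 CPM in MSC against 57.14, 44.43 and 68.27 (log2 2.71, adjusted p = 3.36e-04). Runx1, a blood stem cell factor, stood at 536.8, 344.8 and 353.9 CPM against 78.39, 68.82 and 70.83 (log2 2.47, adjusted p = 3.00e-04). Fos stood at 7440, 6669 and 5832 CPM against 2191, 2357 and 4102 (log2 1.26, adjusted p = 0.0168), and this call was lost without pool 17 (adjusted p = 0.118).

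PU.1 binds purine-rich sites of the ETS type, so letters of that kind were counted in the 250 bases before gene starts. RefSeq windows (GRCm38.p6) matched 10594 of 15340 tested gene symbols and gave 13507 windows. The letters AGGAAGT, on either strand, were present in 16.5% of 1011 windows of genes called with a log2 difference of at least 3 in favour of myeloid cells. They were present in 5.75% of 1999 windows of genes called with at least 3 in favour of MSC and in 7.69% of all windows. Of 13 letter patterns searched, some of them overlapping, several others were also more frequent in myeloid windows, such as CACCTG (21.4% of myeloid, 15.3% of MSC and 15.4% of all windows), TTNCNNAA (37.7%, 28% and 29.4%) and TGANTCA (7.72%, 4.85% and 4.61%). The letters CGCG went the other way, at 34.8% of myeloid, 51.7% of MSC and 57.3% of all windows, and the median GC content was 55.2%, 60% and 59.2%. The letters TTGCNNAA, of the type bound by C/EBP factors, were in 10.9%, 8.65% and 7.86%. Genes with several starts count more than once, and a match shows only that the letters are there.

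The following windows are those of the 3 most abundant strongly myeloid genes that hold AGGAAGT or its reverse complement, shown 5′ to 3′ on the gene's strand up to the last base before the RefSeq start, with the match in capitals, followed by Cxcl12 with CGCG in capitals. They come from S100a8 (chr3:90668821-90669070), Lyz2 (chr10:117282273-117282522, minus strand), Chil3 (chr3:106167565-106167814, minus strand) and Cxcl12 (chr6:117168285-117168534). The RefSeq start of S100a8 lies inside the GENCODE gene span given above, so the end of that window overlaps the GENCODE gene. In all 3 myeloid genes, chosen because they hold a match, it reads as the reverse complement. S100a9, Ltf, Camp and Ngp, all more abundant than Lyz2, are not shown because they had no match or no window. Chil3, a chitinase-like protein of neutrophils and macrophages, stood at 3381, 4264 and 4853 CPM in myeloid pools against 30.88, 29.25 and 40.57 in MSC. The Cxcl12 window holds CGCG at 2 places and no AGGAAGT on either strand.
S100a8: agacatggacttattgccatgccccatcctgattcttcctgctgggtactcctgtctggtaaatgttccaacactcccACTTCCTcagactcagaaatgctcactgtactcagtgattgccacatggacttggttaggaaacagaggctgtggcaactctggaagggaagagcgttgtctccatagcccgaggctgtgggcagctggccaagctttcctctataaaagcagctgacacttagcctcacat
Lyz2: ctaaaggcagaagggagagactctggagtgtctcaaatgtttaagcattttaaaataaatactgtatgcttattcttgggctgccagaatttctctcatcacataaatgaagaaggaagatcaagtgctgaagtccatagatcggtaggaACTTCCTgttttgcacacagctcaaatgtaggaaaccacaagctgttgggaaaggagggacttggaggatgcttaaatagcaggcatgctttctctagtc
Chil3: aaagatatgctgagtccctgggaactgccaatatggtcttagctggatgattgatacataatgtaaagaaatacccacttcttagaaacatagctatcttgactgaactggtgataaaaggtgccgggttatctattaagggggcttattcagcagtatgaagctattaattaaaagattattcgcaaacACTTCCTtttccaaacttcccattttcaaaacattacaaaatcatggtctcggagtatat
Cxcl12: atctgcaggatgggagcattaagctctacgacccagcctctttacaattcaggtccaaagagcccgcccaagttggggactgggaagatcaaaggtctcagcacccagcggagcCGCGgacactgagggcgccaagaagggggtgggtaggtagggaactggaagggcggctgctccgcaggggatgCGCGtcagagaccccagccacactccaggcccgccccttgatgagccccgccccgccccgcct

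Ligand and receptor genes lay in opposite populations in some of the listed pairs, which were chosen with earlier results of these data known. Of 46 listed pairs, both genes of 37 were tested. In 11 the ligand was called higher in MSC and the receptor higher in myeloid cells. With the ligand higher in MSC, the receptor was also higher in MSC in 6 pairs and not called in 5. Over all genes tested, 23.1% were higher in MSC and 20.4% in myeloid cells. Whether the 11 exceed what the separate calls of ligands and receptors give was not tested. Cxcl12 and its receptor Cxcr4 formed 1 of the 11 pairs: Cxcr4 stood at 508.8, 430.2 and 311.5 CPM in myeloid pools against 8.613, 7.448 and 9.673 in MSC (log2 -5.58). So did Csf1 and Il34 with the macrophage receptor Csf1r (61.79 against 2.074 CPM), Igf1 with Igf1r, Cxcl1 with Cxcr2, Icam1 with Itgb2, Vcam1 with Itga4 and Spp1 with Cd44. Cxcl1, a neutrophil attractant, stood at 623, 200.6 and 177.4 CPM in MSC, with pool 15 far above the others, and at 0.6384, 0.6402 and 0.4159 in myeloid pools. Il6 was also highest in MSC pool 15 (195.9, 93.6 and 40.71 CPM, against 5.618, 7.874 and 3.209), and its receptor gene Il6ra was higher in myeloid cells (224.1 against 5.759 CPM). Cd200, an inhibitory surface ligand, reached 62.53 CPM in MSC with 1 count in all myeloid libraries together, and its receptor gene Cd200r1 reached 15.86 CPM in myeloid cells with 1 count in all MSC libraries together.

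The reverse arrangement, a ligand higher in myeloid cells and its receptor higher in MSC, was found in 5 pairs (2 without pool 17 and 3 without pool 19). Osm, oncostatin M, a cytokine of the interleukin 6 family, stood at 1225, 1168 and 1151 CPM in myeloid pools against 8.039, 0.931 and 2.616 in MSC. Its receptor gene Osmr stood at 119.3, 95.95 and 114.7 CPM in MSC against 0.1277, 0.1921 and 0.0594 in myeloid cells. Il1b stood at 440.7, 561.2 and 441.4 CPM in myeloid pools against 7.784, 1.078 and 2.27 in MSC, opposite to Il1r1. The other 3 pairs were Tnf with Tnfrsf1a, Tgfb1 with Tgfbr2 and S100a9 with Tlr4. The calls of Tgfb1 and Tlr4 were lost without pool 17 (adjusted p = 0.0941 and 0.0803) and without pool 19 (adjusted p = 0.0756 and 0.0607). In 6 pairs both genes were higher in MSC, among them Gas6 with Axl and Mertk, Pdgfa with Pdgfra and Fgf7 with Fgfr2. In 2 pairs, Cxcl2 with Cxcr2 and Thbs1 with Cd47, both were higher in myeloid cells. Kitl was stromal, but its receptor gene Kit was not called and its ranges overlapped, at 39.75, 29.5 and 46.49 CPM in MSC and 39.77, 46.48 and 41.24 in myeloid cells (log2 -0.16, SE 0.264, adjusted p = 0.655), with the sign turning to 0.08 when libraries were scaled by total counts alone and when pool 17 was left out. These are levels of RNA, and protein or binding was not measured.

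**Figure D3:**
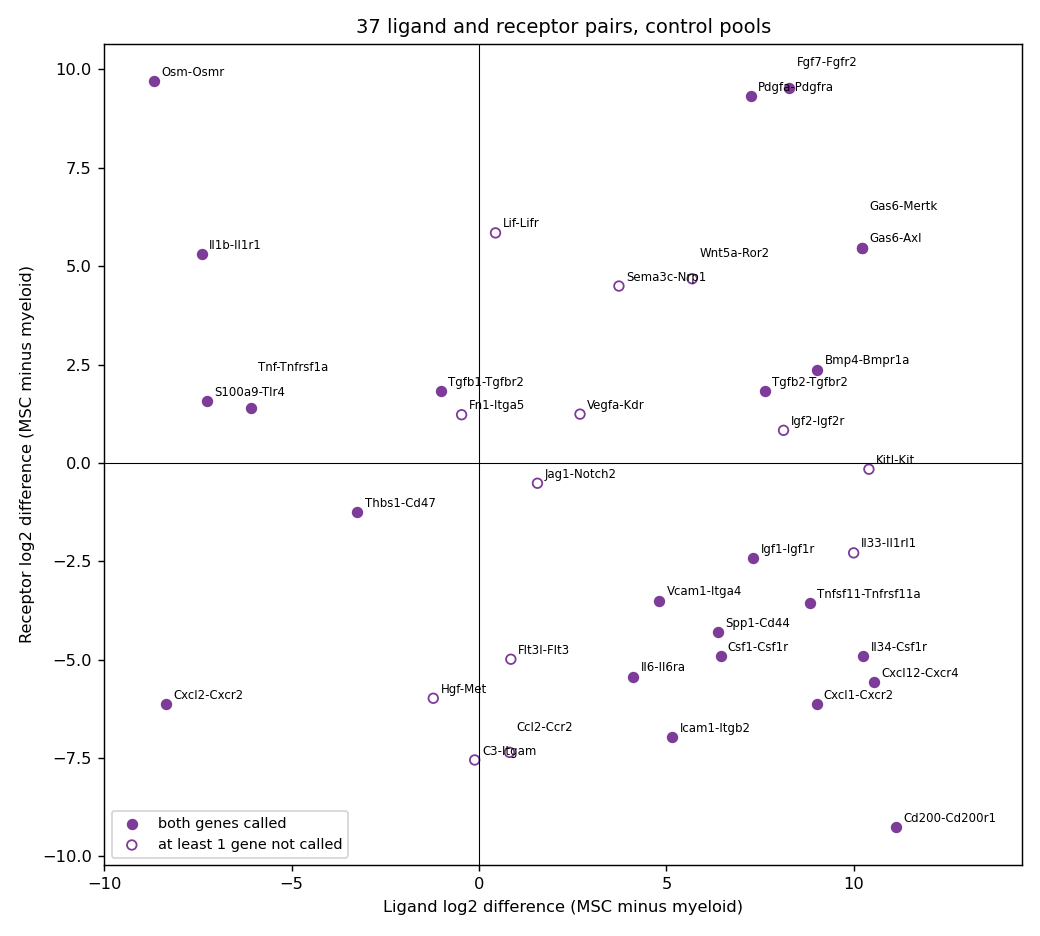
Log2 difference (MSC minus myeloid) of the receptor gene against that of the ligand gene for the 37 pairs with both genes tested; filled points have both genes called. The lower right area (stromal ligand, myeloid receptor) holds 11 such pairs, including Cxcl12 with Cxcr4, and the upper left area 5, including Osm with Osmr.

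**Figure D4:**
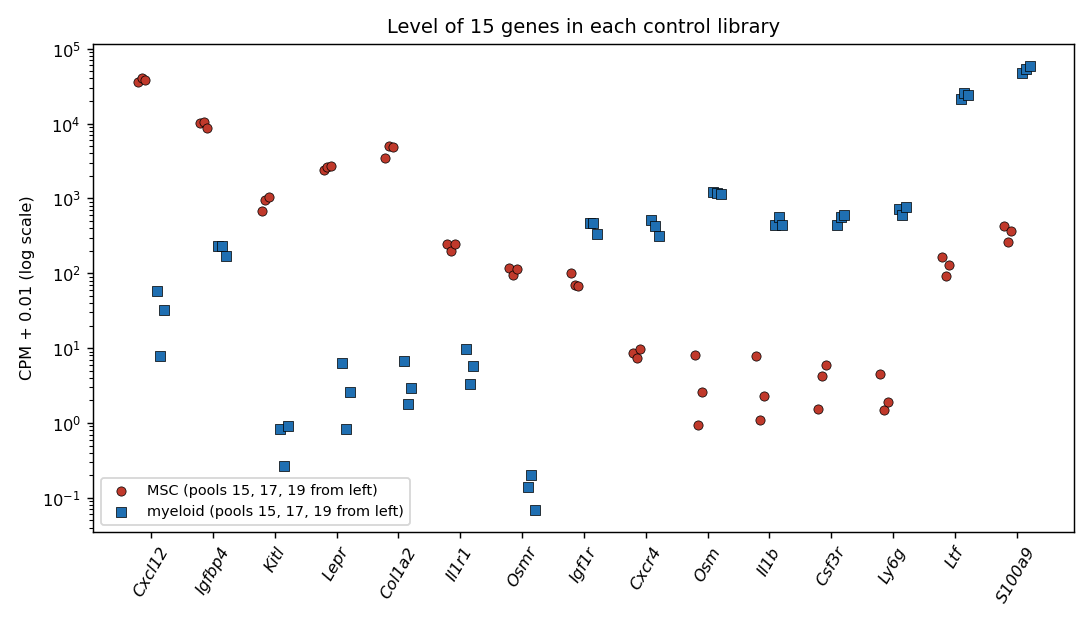
CPM plus 0.01 (log axis) of 15 genes in each of the 6 control libraries, MSC as red circles and myeloid as blue squares, with pools 15, 17 and 19 from left to right. The 2 populations do not overlap for any of the 15 genes, and the low levels of Cxcl12, Kitl and Lepr in myeloid cells were lowest in pool 17.

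Dividing cells were on the myeloid side. Of 36 tested cell cycle genes 33 were higher in myeloid cells (21 without pool 17) and 0 in MSC, with a median log2 difference of -3.23. Mki67, the proliferation marker, stood at 726.5, 771.7 and 728.8 CPM against 9.124, 44.89 and 67.51 in MSC, and Top2a, the mitotic topoisomerase, at 199.8, 201.3 and 240.3 CPM against 7.975, 19.11 and 15.5. Their levels in MSC were lowest in pool 15. Cdkn1c, the cyclin-dependent kinase inhibitor p57, was higher in MSC at 68.46, 69.09 and 66.28 CPM against 0.3192, 1.216 and 0.0594, while Cdkn2d, another such inhibitor, was higher in myeloid cells (288 against 22.31 CPM).

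Metabolic and secretory lists differed less than identity lists. Over all genes tested, 23.1% were higher in MSC and 20.4% in myeloid cells. Without pool 17, 1986 of 16518 genes were higher in MSC and 1694 in myeloid cells. Of 23 glycolysis genes 11 were higher in myeloid cells and 3 in MSC. Pkm, pyruvate kinase, stood at 1319, 1672 and 1848 CPM against 217.4, 191.2 and 265.9, and Pgk1, phosphoglycerate kinase, at 840.1, 926.5 and 877 CPM against 75.8, 88.5 and 79.65. Of 49 genes of oxidative phosphorylation 24 were higher in myeloid cells and 6 in MSC. Without pool 17, 5 were higher in myeloid cells, near the share of all genes in that fit. Ribosomal protein genes were mostly not called, with 22 of 65 higher in myeloid cells (4 without pool 17) and 3 in MSC, and many of them have processed copies that may share counts. With libraries scaled by their total counts alone, 13 of the 65 were higher in myeloid cells and 7 in MSC. Genes of the secretory pathway leaned to MSC, with 19 of 30 higher there and 2 in myeloid cells, among them Hspa5, the chaperone BiP (3400 against 1142 CPM), and Calr, calreticulin (1262 against 214.7 CPM).

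Immediate early genes, which respond within minutes to stress and handling, had a high summed level in both populations. Single members had log2 differences from -3.1 to 10.94. Of 38 tested, 13 were higher in MSC and 6 were higher in myeloid cells, beside 23.1% and 20.4% of all genes tested. Without pool 15 the count higher in myeloid cells was 10. Their summed level in MSC was 51020, 34210 and 27940 CPM in pools 15, 17 and 19, a wider spread than in myeloid cells (23940 to 28990). Hspa8, a heat shock chaperone, was likewise highest in MSC pool 15 (6145, 4327 and 3733 CPM), as did Fos. Klf2 and Ier2 were higher in myeloid cells (3289 and 1651 CPM against 386 and 479.7). The part of handling in these differences was not tested.

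Markers of other cell types were found in both populations, and some varied by pool. Of 19 tested erythroid genes 13 were higher in MSC and 1 in myeloid cells (8 higher in MSC without pool 17, and 8 without pool 19), and their summed level was 809.4, 1337 and 1846 CPM in MSC pools 15, 17 and 19 against 246.5, 334.2 and 185 CPM in myeloid pools. Hbb-bs, a beta globin, stood at 202.1, 374.1 and 442.3 CPM against 13.53, 44.43 and 34.4. The alpha globin genes Hba-a1 and Hba-a2 are near-identical, and their split is uncertain. Of 18 B cell and plasma cell genes 4 were higher in MSC, near the 23.1% of all genes tested: Ebf1, which stroma also expresses, Sdc1 (367.9 against 0.382 CPM), Jchain and Igkc. Sdc1 was even across MSC pools 15, 17 and 19, at 345.2, 332.9 and 353.3 CPM on a common scaling of control libraries. The call of Jchain was lost without pool 17 (adjusted p = 0.0857) and without pool 19 (adjusted p = 0.0525). The B cell gene Ms4a1 did not pass the low-count filter. Igkc, the immunoglobulin kappa constant region, stood at 105.3, 636.5 and 711.9 CPM in MSC and at 40.35, 15.56 and 68.57 in myeloid cells, while Ighm was not called (20.74, 743.3 and 916.7 CPM in MSC against 123.3, 115.1 and 214.8). Without pool 15 Ighm was called higher in MSC (log2 2.53, adjusted p = 1.8e-05), and without pool 17 its sign turned (log2 -0.22). Of 20 endothelial genes 11 were tested, and Cdh5, Tek and Cldn5 did not pass the low-count filter. Eng, also a member of the stromal identity list (75.85 against 0.9189 CPM), and Emcn (6.468 against 0.0412 CPM) were higher in MSC. Erg (0.7382 against 20.38 CPM) was higher in myeloid cells. The calls of Emcn and Erg were lost without pool 17 (adjusted p = 0.0888 and 0.0667). Pecam1 was not called and stood at 0.4466 to 2.665 CPM in MSC and 3.064 to 5.697 in myeloid cells. Cd3d, of T cells, stood at 20.3, 18.56 and 16.76 CPM in myeloid cells, and its call was lost without pool 17 (adjusted p = 0.0818). Cd3e, Cd3g, Cd4, Trac and Trbc2 did not pass the low-count filter, and Cd8a was not called. The part of these cells in the other differences was not tested.

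The lowest levels carried a pattern of their own. Among 809 abundant genes called higher in MSC (mean of at least 100 CPM there), the log2 differences had 2 peaks, with 185 genes between 1 and 2, 29 between 6 and 7, and 107 between 10 and 11. Cxcl12, Adipoq, Sparc, Bgn, Col1a2 and Serpinh1 all fell between 10 and 11, although their levels in MSC ran from 1480 to 37970 CPM. Among 62 matrix genes with at least 50 CPM in MSC, the median level in the myeloid library was 0.194% of that in the MSC library of the same pool in pool 15, 0.0686% in pool 17 and 0.114% in pool 19. For 52 secondary granule and receptor genes the median level in MSC was 1.16%, 0.841% and 1.05% of that in myeloid cells. In the anti-PAPP-A pools the corresponding values were higher, at 0.226% to 0.351% and 1.48% to 2.17%.

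In the other control libraries of the series the low end was lower for stromal genes in myeloid cells and higher for myeloid genes in MSC. On a common scaling of 16 control libraries, the same 62 matrix genes stood at a median of 0.0387% to 0.0547% of the batch C MSC level in the 3 myeloid libraries of batch B, against 0.0718% to 0.167% in those of batch C. The 52 granule and receptor genes stood at 1.73% to 3.16% of the batch C myeloid level in the MSC libraries of batch A, against 0.794% to 1.13% in those of batch C. Cxcl12 itself stood at 0.2637, 0.5116 and 0.4294 CPM in batch B myeloid libraries, against 52.92, 7.502 and 30.2 in batch C. Kitl had 0 counts in all 3 batch B myeloid libraries. In whole bone marrow (WBM) Cxcl12 stood at 7.289 to 68.61 CPM and S100a9 at 11470 to 30070 CPM. The MSC libraries of batch A held Cxcl12 at 19500 to 29310 CPM and S100a9 at 677.8 to 2198 CPM. Pool 7 of that batch had only 321860 counts. The MSC of batch A and the myeloid cells of batch B came from different pools, so batch, pool and population cannot be told apart across them, and these values are a description.

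The order of the populations held in those other batches for most called genes. Of 3735 genes higher in MSC, all 3 batch A MSC libraries lay above all 3 batch B myeloid libraries for 63.3% and below them for 2.3%. Of 3307 genes higher in myeloid cells, the batch A MSC libraries lay below for 82% and above for 0.181%. Among 9141 genes without a call the shares were 10.7% above and 25.5% below. Hp was one of those that did not hold: it stood at 2902, 3779 and 2095 CPM in batch A MSC and at 3619, 2915 and 3034 CPM in batch B myeloid libraries, so the ranges overlapped. Cebpa (116.9 to 199.7 CPM against 61.65 to 109.5) and Igf1r (28.06 to 73.47 against 251.8 to 273.9) kept their order.

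Mice given anti-PAPP-A antibody gave the same contrast in other animals. In pools 16, 18 and 20, 5958 of 15376 genes were called (38.7%), 3267 higher in MSC (21.2%) and 2691 higher in myeloid cells (17.5%). Of 14719 genes tested in both sets of pools, 5152 were called in both with the same sign, which is 75% of 6870 control calls and 87.1% of 5915 treated calls, and 0 were called in both with opposite signs. Several of the largest differences were smaller in size in the treated pools: Cxcl12 differed by 8.78 there against 10.55 in control pools, Adipoq by 8.34 against 10.78, Igfbp5 by 8.43 against 11.24, and Ltf by -6.29 against -7.56. The test of this difference between treatments called 0 of 18340 genes, with 1077 at an unadjusted p under 0.05; DESeq2 called 139. The smallest p belonged to Padi4, an enzyme of neutrophil extracellular traps, whose level in MSC was 0.4505, 0.5987 and 0.4487 CPM in control pools and 2.62, 1.863 and 3.453 CPM in treated pools (adjusted p = 0.257).

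**Figure D5:**
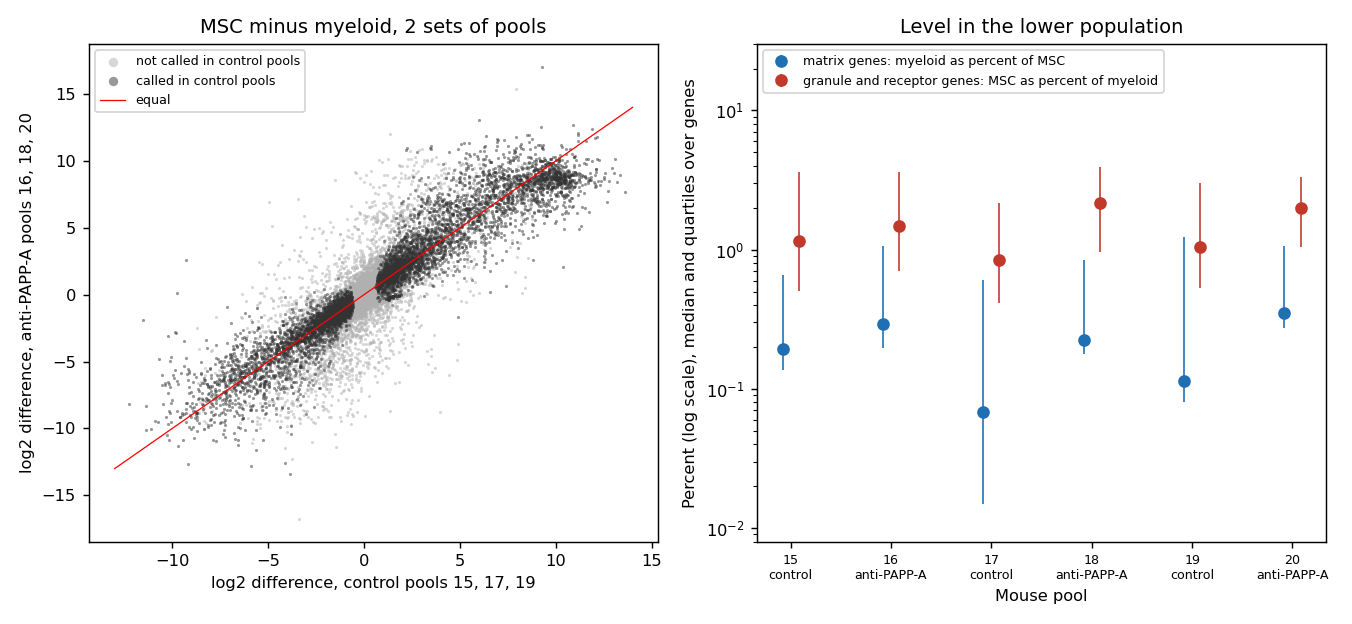
Left, log2 difference (MSC minus myeloid) in the anti-PAPP-A pools against the control pools for genes tested in both, with the line of equal values; right, by pool, the level in the lower population as a percent of the higher one, as median and quartiles over 62 (control) or 61 (treated) matrix genes and 52 or 49 granule and receptor genes, on a log axis. At the stromal end many points lie below the line, and the right panel shows the traces at 0.0686% to 0.194% in control pools and 0.226% to 0.351% in treated pools for matrix genes.

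The genes with the largest differences were often at 0 or near it in the other population. Among genes with a mean of at least 50 CPM in MSC these included Igsf10, an immunoglobulin domain protein of mesenchyme, Prkcdbp, a caveolar protein, P3h2, a collagen prolyl hydroxylase, Arhgef17, a guanine nucleotide exchange factor, Plac9a, and Heyl, a Notch target gene. All 6 had 0 counts in the 3 myeloid libraries, and they were at least 394-fold, 355-fold, 335-fold, 324-fold, 294-fold and 270-fold higher in MSC, in that order. Over all genes tested, 457 had 0 counts in the myeloid libraries and 181 had 0 in MSC. Among genes with a mean of at least 50 CPM in myeloid cells, the 3 largest fitted differences belonged to Ugt1a8, with 0 counts in MSC and at least 337-fold higher, Sirpb1c, a signal regulatory protein, and Tlr13, the receptor for bacterial ribosomal RNA. Ugt1a8 shares its last exons with the other genes of its locus and Sirpb1c belongs to a family of close copies, so both are uncertain. Tlr13 stood at 95.54 CPM against 0.07532, and Cd300lf, an inhibitory receptor also among the 15 largest, at 85.67 against 0.1573.

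A few genes varied more by pool than their neighbours. Lars2, which encodes a mitochondrial leucyl-tRNA synthetase and is known to attract ribosomal RNA reads, stood highest in pool 15 in both populations, with 76242 counts in MSC and 15990 in myeloid cells against 25301 to 28742 and 2704 to 4047 in the other pools. Gdap1, a mitochondrial fission factor, was lowest in pool 17 in both (8174 counts in MSC and 1883 in myeloid cells). The ribosomal RNA entry NR_046233 was also highest in pool 15. The part of ribosomal RNA in these levels was not tested.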

How the data were processed

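RNA was sequenced from sorted bone marrow populations with a strand-specific library kit, per the labels' protocols. The authors deposited estimated counts per gene, which were whole numbers in the files, and the tools listed per the submitters' processing notes are FastQC 0.11.5 and Salmon, with the build mm10. Which Salmon version and gene annotation were used is not given in the sources used here. The deposited table held 56332 genes in 57 samples.

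Genes were filtered with edgeR 4.0.16 (filterByExpr), scaled by TMM and tested with the robust quasi-likelihood test, with the mouse pool as a block and Benjamini-Hochberg adjustment over all genes tested. Pools pair the populations because, by the labels, both came from the same mice. Deviations of same-pool libraries correlated at 0.195, 0.13 and 0.154, and those of libraries of different pools at -0.231 to 0.128. Deviations from a mean sum to 0, so these correlations alone do not show the pairing. CPM, SD and exon lengths (GENCODE) were computed from the counts, and a fold against 0 counts uses a floor of 3 counts per library. Alternatives used limma 3.58.1 (voom) and DESeq2 1.42.0 in R 4.3.3. The test was also run on simulated data with far fewer changed genes, and smaller differences, than the largest seen here. That run therefore does not cover a contrast as wide as this one.

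The members and gene lists were chosen with earlier results of these data known. Genes were named by rule: Cxcl12 and S100a9, the 15 largest differences each way among genes with a mean of at least 50 CPM, up to 5 most abundant and up to 3 opposite members of each list, the genes of each pair, the 5 most abundant genes each way with a log2 difference of at least 3, the 3 smallest p-values between treatments, and the 5 genes with the widest spread between pools in each population.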

Additional observations from a re-analysis of the deposited data

Results flagged for a closer look

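Hgf, hepatocyte growth factor, had opposite signs in the 2 sets of pools. Its log2 difference (MSC minus myeloid) was 2.12 in anti-PAPP-A pools and -1.22 in control pools, where it stood at 2.488, 2.94 and 1.629 CPM in MSC and at 3.575, 5.89 and 7.308 CPM in myeloid cells. Neither difference was called (adjusted p = 0.336 in control and 0.514 in anti-PAPP-A pools), and edgeR's test of the difference between treatments gave an unadjusted p of 0.208 and an adjusted p of 0.948.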

How the results depend on the processing

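The control comparison called 7042 genes with the pool as a block and 7812 with no block (unpaired). It called 9046 with DESeq2, 8721 with limma voom, 7120 with median-ratio size factors, 7136 with upper-quartile scaling, 6877 with no low-count filter, 7440 with at least 10 counts in every library of one population, 7065 after thinning to equal totals, and 6912 with Ensembl genes only. Tested against a minimum log2 difference of 1, it called 4613, of which 2639 were higher in MSC and 1974 in myeloid cells. With libraries scaled by total counts alone it called 7210, the share higher in MSC went from 53% to 61.6%, and the median log2 difference of all genes went from 0.051 to 0.298. Leaving out 1 pool gave 3680 to 7066 calls, 1986 to 4049 higher in MSC and 1694 to 3017 higher in myeloid cells, with the lowest values without pool 17; 0 calls switched direction under any of these alternatives. The anti-PAPP-A comparison called 5958 genes, 7018 with no block, 8588 with DESeq2, 5714 with no low-count filter, and 4264 to 4805 with 1 pool left out. The difference between treatments called 0 genes, 2 with no block, 33 with no low-count filter, 139 with DESeq2, 0 with median-ratio size factors, and 0 to 3 with 1 pool left out. Of 150 genes followed through the alternatives, 136 kept their direction and side of the threshold without pool 17 and 148 with no block. Kit, not called (log2 -0.16), turned to 0.08 with total counts alone and ranged from -0.33 to 0.08 with 1 pool left out, and Ighm, not called (log2 1.07), ranged from -0.22 to 2.53; the cause was not tested. Depth limited the genes at 0 counts, whose differences are bounds.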
